A study of Mus musculus with 11 samples.

Results

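The comparison described here sets 4 libraries of the Raptor mTOR double knock-out against 3 libraries of the Raptor knock-out, 7 of the 11 libraries of the series, chosen by the genotype in the labels. Both genotypes lack Raptor in muscle fibres, so the comparison asks what the additional loss of mTOR did to gene expression. The Raptor knockout mice (HSA-Cre-Raptor fl/fl) carried a floxed Raptor gene and a tamoxifen-inducible Cre recombinase, a fusion with a mutated domain of the oestrogen receptor, whose expression is driven in muscle fibres by the promoter of human skeletal actin (HSA). The double knockout mice came from a cross of those mice with mTOR fl/fl mice. Both groups, and the wild-type mice used as background (4 libraries), received tamoxifen chow for 7 weeks from the age of 3 months, and the gastrocnemius, a calf muscle of mixed fibre type, was collected 7 months after its start. The strain of origin of the floxed alleles, the floxed exons, the sex of the mice, whether the wild-type mice carried the Cre gene and which mice were littermates could not be read from the labels. Cells other than fibres in the muscle keep both genes.

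mTOR is a kinase that works in 2 complexes. Raptor is the subunit that brings substrates to mTOR complex 1, which drives ribosome production and translation and restrains autophagy. mTOR complex 2 contains Rictor in place of Raptor and phosphorylates AKT and SGK, kinases that in turn keep FOXO transcription factors out of the nucleus. A fibre without Raptor therefore lacks complex 1 and can still form complex 2, whereas a fibre without mTOR can form neither.

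Libraries were made with the QuantSeq 3' mRNA FWD kit, so that each read comes from near the 3' end of a polyadenylated transcript. Library totals were 3223797 to 3764879 counts in the Raptor knockout and 2791339 to 3536731 in the double knockout. Levels are CPM, read counts relative to the library total as scaled by the TMM method, and they do not compare different genes per unit length. A gene was called at an adjusted p under 0.05 in edgeR's quasi-likelihood test, two-sided, with the Benjamini-Hochberg adjustment over all 10505 tested genes. All adjusted p-values below are from that test unless another is named. The labels do not say that each library is a separate mouse, so p-values measure the spread between these libraries, which may be technical. In bulk tissue fewer cells of a type and less RNA per cell cannot be told apart.

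The groups differ in sex and in the run named with the deposited counts. Xist, an RNA that coats the silenced X chromosome of female cells, stood at 0 in all 3 Raptor knockout libraries and at 185.5, 95.6, 207.8 and 0.291 CPM in double knockout replicates 1 to 4. The Y-linked helicase gene Ddx3y stood at 77.7, 90.7 and 64.6 CPM in the Raptor knockout and at 0.316, 0, 0 and 91.8 in the double knockout. By these genes the 3 Raptor knockout libraries were from males, 3 of the 4 double knockout libraries from females, and double knockout replicate 4 from a male. The labels give no sex. In 3 of the 4 double knockout libraries sex and genotype cannot be told apart, and the tests are therefore also given with sex as a covariate, to which the wild-type libraries (1 of 4 female) contribute, and with the male libraries alone, which leaves 1 double knockout library. By the names of the deposited counts, double knockout replicates 3 and 4 belonged to run 1 and all other libraries to run 3. Run 1 holds fewer of these libraries and is called the smaller run below. The labels do not say what a run was.

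Muscle fibre markers were abundant in both groups: all 8 were tested, and their summed level was 89735 to 98122 CPM in the Raptor knockout and 88709 to 107231 in the double knockout. None of 10 lymphocyte markers reached the level for testing.

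By the edgeR test over all 3 genotypes few genes were called between the double knockout and the Raptor knockout. Of 10505 genes, 3 were called (0.0286%): Irs2 rose (1 gene higher, 0.00952%), and Sdhd and Gm43778 fell (2 genes lower, 0.0190%). A further 10 genes had an adjusted p under 0.1, which makes 13 in all (0.124%), 7 higher (0.0666%) and 6 lower (0.0571%). The unadjusted p was under 0.05 for 997 genes (9.49%), 457 higher (4.35%) and 540 lower (5.14%). The libraries of the 2 groups did not overlap for 1283 genes (12.2%), 544 higher (5.18%) and 739 lower (7.03%). For 7436 genes (70.8%) the 95% interval of the difference lay within 2-fold in both directions. The median size of a difference was 0.20 on the log2 scale and its median SE was 0.25. Against wild type, by the same test, 2802 genes (26.7%) were called in the double knockout and 1908 (18.2%) in the Raptor knockout, 2 comparisons that share the wild-type libraries. They also differ in the number of knockout libraries and in sex, so these counts do not rank the genotypes by size of effect. With sex as a covariate no gene was called, and 643 genes had an unadjusted p under 0.05. The male libraries alone also gave no call, with 404 genes at an unadjusted p under 0.05. The DESeq2 Wald test called 99 genes on the same counts, 51 higher and 48 lower. In edgeR 157 genes were called with the knockouts alone in the fit, 105 with no filter on low counts and 97 without wild-type replicate 4.

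**Figure D1:**
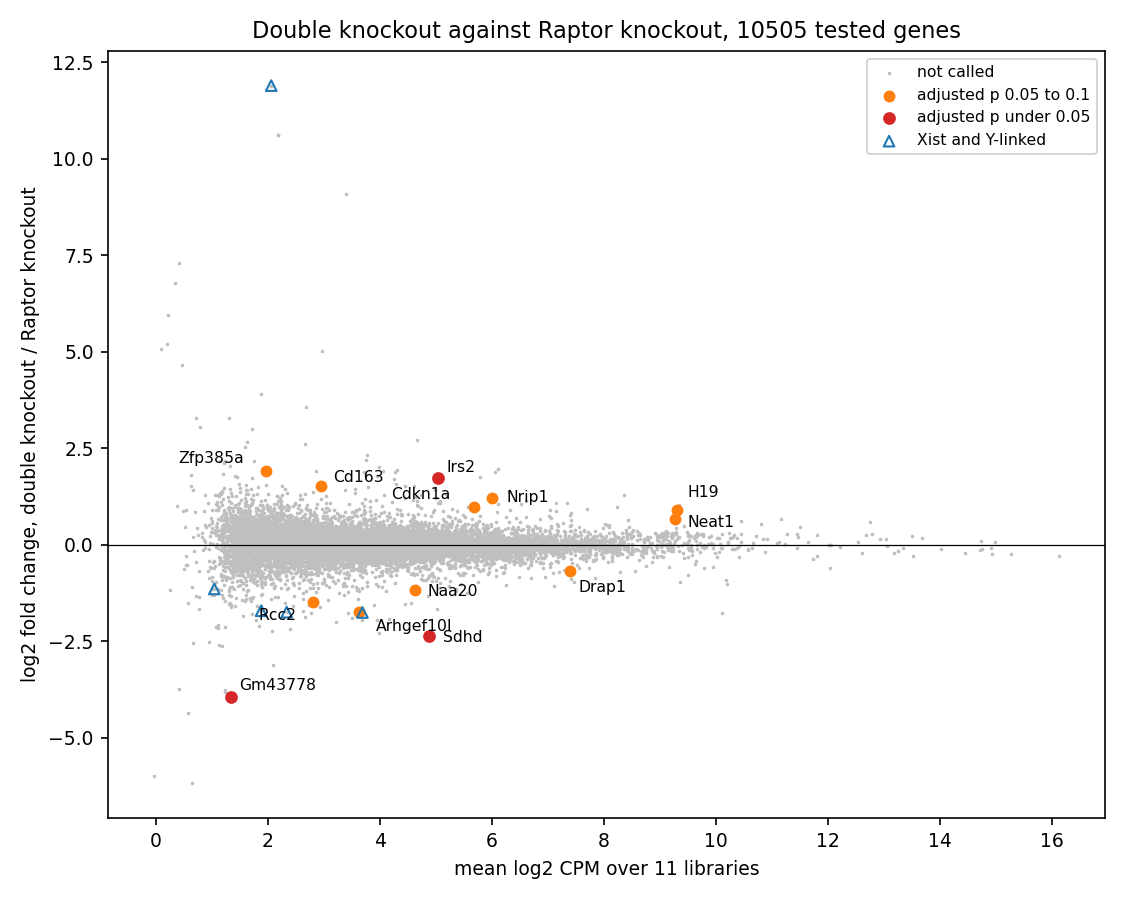
Log2 fold change of the double knockout over the Raptor knockout (y axis) against the mean log2 CPM over 11 libraries (x axis), 1 point per tested gene. The 3 called genes are red, the 10 genes with an adjusted p of 0.05 to 0.1 orange, and Xist and 4 Y-linked genes are open triangles. Most of the 10505 points lie near 0, and Irs2 and Sdhd stand out at intermediate levels.

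The clearest difference was in Irs2, insulin receptor substrate 2, an adaptor that carries the signal of the insulin and IGF receptors to PI3-kinase and AKT. Irs2 (ENSMUSG00000038894, GRCm38 chromosome 8, 10984681 to 11008458, minus strand) stood at 70.2, 72.7, 49.8 and 43.0 CPM in double knockout replicates 1 to 4. It stood at 19.7, 16.8 and 17.0 CPM in the Raptor knockout and at 31.3, 26.5, 34.0 and 22.3 in wild type. The 3 groups did not overlap: the Raptor knockout was lowest, wild type lay between, and the double knockout was highest. The rise over the Raptor knockout was 3.29-fold (95% interval 2.40 to 4.53; log2 fold change 1.72, SE 0.22, adjusted p = 0.00616). Against wild type Irs2 was 0.68 lower in the Raptor knockout (log2 fold change -0.68, adjusted p = 0.0380) and 1.04 higher in the double knockout (adjusted p = 0.000667). The male double knockout library, at 43.0 CPM, was the lowest of its group and above all 7 libraries of the other genotypes. With sex as a covariate the log2 fold change of Irs2 was 1.35 (adjusted p = 0.179), and in the male libraries alone it was 1.28 (adjusted p = 1). Without the smaller run it was 1.998 (adjusted p = 0.00286). The call was lost without Raptor knockout replicate 1 (1.80, adjusted p = 0.0662) or replicate 3 (1.68, adjusted p = 0.105), and in limma on the deposited TPM (1.43 on the log2(TPM + 1) scale, adjusted p = 0.0928).

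As background, Irs2 is a known target of FOXO proteins, which AKT restrains and which bind insulin response elements, and of TFE3, which complex 1 restrains and which binds E-boxes. The stretch below is shown because both motifs stand next to each other in it. It is 30 bases long and lies upstream of the RefSeq start of Irs2 (GRCm38.p6, chr8:11008952-11008981, minus strand, written 5' to 3'). The RefSeq start is itself upstream of the gene start in the positions given above. The capitals mark the E-box CACGTG and the insulin response element core TGTTTTG.

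Irs2 promoter: cgcagagtCACGTGtTGTTTTGctcttagt

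The E-box began 44 bases and the insulin response element core 37 bases before the start, with 1 base between them. In the 250 bases before the start, searched on both strands, CACGTG occurred in 6.02% and TGTTTTG in 5.56% of 32851 RefSeq promoters, and both occurred in 0.295%. Over the 10345 promoters of tested genes these shares were 8.51%, 3.75% and 0.319%. Of the 13 genes with an adjusted p under 0.1, 10 had a promoter in the table, and Irs2 alone of these held either motif. The forkhead core TGTTTAC was in none of the 10, in 3.17% of all promoters and in 2.06% of those of tested genes. These are matches of letters, and binding was not measured.

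Of the 2 called falls Sdhd had the higher counts. It encodes the small membrane anchor subunit D of succinate dehydrogenase, which is both an enzyme of the citric acid cycle and complex II of the respiratory chain. Sdhd (ENSMUSG00000000171, chromosome 9, 50596357 to 50603812, minus strand) stood at 7.90, 14.8, 11.4 and 15.1 CPM in double knockout replicates 1 to 4, at 64.4, 40.9 and 85.7 in the Raptor knockout, and at 30.8, 55.1, 57.4 and 24.1 in wild type. Every double knockout library lay below all 7 others, and the spread within the Raptor knockout was wide. The level in the double knockout was 0.195 times that in the Raptor knockout (95% interval 0.116 to 0.327; log2 fold change -2.36, SE 0.34, adjusted p = 0.0450). With sex as a covariate the log2 fold change was -2.53 (adjusted p = 0.285) and in male libraries alone -2.06 (adjusted p = 1). The call was also lost with library totals in place of TMM (-2.34, adjusted p = 0.0718) and without the smaller run (-2.47, adjusted p = 0.163). Sdhd was likewise not called with run as a covariate or in any limma setting on the deposited TPM. Nor was it called without wild-type replicate 2, Raptor knockout replicate 1 or 3 or any 1 double knockout library (-2.46 to -2.09, adjusted p 0.0546 to 0.1999).

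The other fall was in Gm43778 (ENSMUSG00000105186, chromosome 5, 55652949 to 55653147, plus strand), a short annotated transcript with no known product. The double knockout libraries held 1, 3, 2 and 1 counts of it, the Raptor knockout libraries 36, 31 and 22, and the wild-type libraries 16, 14, 3 and 7. The double knockout held 7 counts in all against 89 in the Raptor knockout, a ratio of 0.0614 (95% exact binomial interval 0.0240 to 0.132, counting error only) with adjusted p = 0.0434. The call was lost in 14 of 23 alternatives, among them sex as a covariate (log2 fold change -2.88, adjusted p = 0.624).

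**Figure D2:**
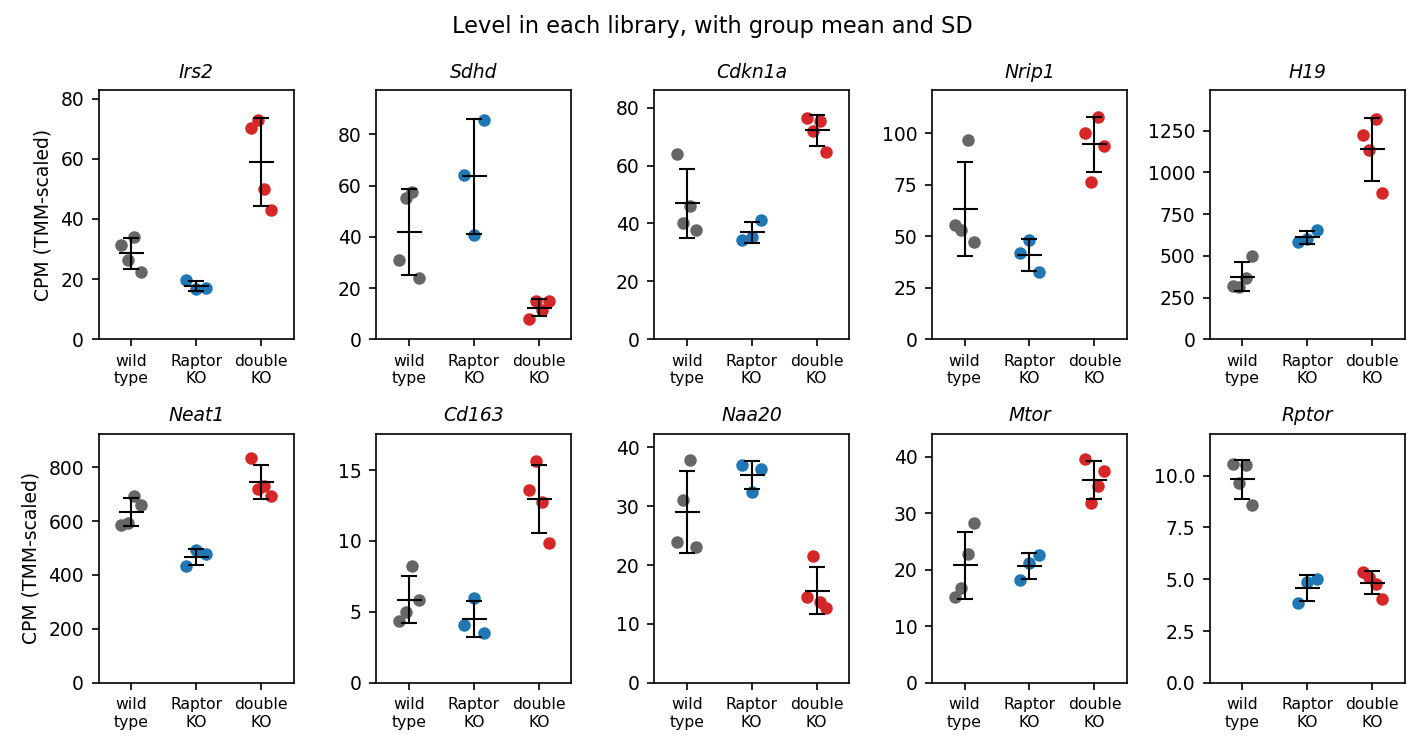
CPM (y axis, from 0) of 10 genes in each library of wild type (grey, n = 4), Raptor knockout (blue, n = 3) and double knockout (red, n = 4), with the group mean and SD in black. Irs2 and Sdhd do not overlap between the knockouts, Mtor is higher in every double knockout library, and Rptor is equally low in both knockouts.

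The 10 genes with an adjusted p between 0.05 and 0.1 were named after their values were seen, and none of them was called. Of these, 6 were higher in every double knockout library than in every Raptor knockout library. Cdkn1a, which encodes the cell cycle inhibitor p21 and is induced by FOXO proteins and p53, stood at 76.5, 71.9, 75.3 and 64.8 CPM against 34.4, 35.5 and 41.1 (log2 fold change 0.96, SE 0.18, adjusted p = 0.0791). Nrip1, a nuclear receptor corepressor that restrains oxidative metabolism in muscle, stood at 100.2, 76.5, 108 and 93.9 CPM against 41.8, 48.2 and 32.9 (1.21, SE 0.23, adjusted p = 0.0866). H19, the imprinted noncoding RNA next to Igf2, stood at 1221, 1132, 1321 and 879 CPM against 580, 599 and 654 (0.90, SE 0.17, adjusted p = 0.0866). Wild-type libraries held 37.9 to 63.97 CPM of Cdkn1a and 47.3 to 96.9 of Nrip1, where the female library was the highest, and H19 was lowest in wild type, at 314 to 498 CPM.

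The other 3 higher genes were Neat1, Cd163 and Zfp385a. Neat1, the RNA scaffold of nuclear paraspeckles, had a log2 fold change of 0.67 (SE 0.12), with 692 to 835 CPM in the double knockout, 434 to 492 in the Raptor knockout and 585 to 693 in wild type. Cd163, the haemoglobin scavenger receptor of resident macrophages, had a log2 fold change of 1.51 (SE 0.28), with 13.6, 15.6, 12.7 and 9.88 CPM in the double knockout and 4.10, 5.96 and 3.52 in the Raptor knockout. Of the 13 other macrophage markers tested none had an unadjusted p under 0.05, and the list's summed level was 213 to 299 CPM in the double knockout and 149.98 to 317 in the Raptor knockout. Zfp385a, a zinc finger protein that binds p53, had a log2 fold change of 1.91 (SE 0.38), with 7.95 to 13.0 CPM against 2.35 to 3.25.

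The 4 lower genes of this group also had libraries that did not overlap. Rcc2, a regulator of Rac1 and of mitosis, stood at 3.77 to 5.04 CPM in the double knockout and 9.74 to 13.8 in the Raptor knockout (log2 fold change -1.48, SE 0.26). Arhgef10l, a guanine nucleotide exchange factor, stood at 3.79 to 8.72 CPM against 11.6 to 24.6 (-1.75, SE 0.32). Naa20, the catalytic subunit of the NatB N-terminal acetyltransferase, stood at 12.8 to 21.5 CPM against 32.5 to 36.9 (-1.17, SE 0.21). Drap1, a partner of the transcriptional repressor DR1, stood at 99.9 to 111 CPM against 139.7 to 188 (-0.68, SE 0.13) and at 244 to 278 in wild type. All 10 kept their sign with sex as a covariate, where none was called. They also kept it in male libraries alone, which the lack of overlap between the libraries had already settled. With the covariate and in male libraries the log2 fold change was -1.54 and -1.45 for Naa20, 0.87 and 1.20 for Nrip1, and 0.72 and 0.53 for H19.

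The targeted genes check the labels only in part, since tags come from the 3' end and the labels do not place the loxP sites. Rptor, the gene for Raptor, stood at 3.85, 4.87 and 4.99 CPM in the Raptor knockout and at 5.37, 5.12, 4.77 and 4.07 in the double knockout, and all 7 lay below the 8.57 to 10.6 CPM of wild type. The log2 fold change between the knockouts was 0.08 (95% interval -0.43 to 0.60, adjusted p = 0.955). Mtor stood higher in the double knockout, at 39.5, 31.8, 34.7 and 37.5 CPM against 18.2, 21.1 and 22.6 (log2 fold change 0.80, SE 0.20, adjusted p = 0.162). Mtor was called, at 0.81, with no filter on low counts, with the knockouts alone in the fit and in DESeq2, and at 0.80 without wild-type replicate 4. The tag counts do not show a loss of Mtor transcripts. On the deposited TPM the Mtor difference was 3.09 on the log2(TPM + 1) scale, at 26.8 to 38.7 TPM against 2.83 to 3.12 (limma adjusted p = 0.000115), a size that the counts of the same libraries did not have, and the cause was not tested.

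Of 10 tested genes for subunits and assembly factors of the mTOR complexes, 8 had a positive difference, Mtor and Deptor had an unadjusted p under 0.05, and none was called. Deptor, an inhibitory subunit of both complexes, stood at 164.9 to 211 CPM in the double knockout and 129 to 141 in the Raptor knockout (log2 fold change 0.50, SE 0.18, adjusted p = 0.357). Rictor, the defining subunit of complex 2, had a log2 fold change of 0.32 (unadjusted p = 0.313), and Mapkap1, another subunit of complex 2, one of -0.18 (unadjusted p = 0.275).

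Among 33 genes of insulin, PI3K and AKT signalling, Irs2 was the only gene called. There were 5 with an unadjusted p under 0.05, and all were higher in the double knockout: Irs2, Foxo1, Sgk1, Grb10 and Foxo3. Of all genes 4.35% were higher at that level. The list's median difference was 0.10 against 0.007 over all genes. Foxo1, the transcription factor that AKT inactivates, stood at 138, 172, 112 and 52.6 CPM in the double knockout and at 39.997, 27.9 and 37.6 in the Raptor knockout (log2 fold change 1.76, SE 0.59, adjusted p = 0.374). In wild type Foxo1 stood at 24.6, 25.7, 104 and 34.7 CPM, highest in the female library. Sgk1, a kinase activated by complex 2, stood at 37.3, 42.3, 40.3 and 44.5 CPM in the double knockout, at 29.2, 13.3 and 24.4 in the Raptor knockout and at 59.4 to 73.9 in wild type (log2 fold change between the knockouts 0.88, SE 0.21, adjusted p = 0.142). Grb10, an adaptor that inhibits the insulin receptor and is stabilised by complex 1, stood at 37.6 to 58.7 CPM against 20.03 to 27.3 (0.89, SE 0.25, adjusted p = 0.206). Among other members, the log2 fold change was 0.19 for Akt1, 0.12 for Akt2, 0.11 for Insr and -0.01 for Irs1. These do not stand for the whole list, which ran from -1.55 to 1.76 with 14 of 33 members negative. In the fit with sex as a covariate 2 members of the list had an unadjusted p under 0.05 in each direction.

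Within the lists that follow, members other than the 2 most abundant were picked for naming after their values were seen. Immediate early genes, transcription factors and feedback regulators switched on within minutes of a stimulus, had the largest median difference of the pathway lists. All 20 tested members were higher in the double knockout, with a median of 0.92, and 10 had an unadjusted p under 0.05 (457 of all genes, 4.35%, were higher at that level). None was called. The libraries of 11 members did not overlap (544 of all genes, 5.18%). Atf3, a stress-induced transcription factor, stood at 72.7, 69.5, 30.7 and 16.3 CPM in the double knockout and at 5.90, 12.5 and 12.9 in the Raptor knockout (log2 fold change 2.19, SE 0.56, adjusted p = 0.206). Btg2, an antiproliferative gene, stood at 60.4, 74.6, 41.3 and 43.0 CPM against 18.7, 16.2 and 22.02 (1.53, SE 0.34, adjusted p = 0.142). Jun stood at 164, 199, 153 and 102 CPM against 59.7, 75.5 and 77.8 (1.12, SE 0.36, adjusted p = 0.307).

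The mean log2 CPM of the immediate early list was 5.19, 5.26, 5.10 and 4.64 in the double knockout and 4.05, 4.04 and 4.09 in the Raptor knockout. In wild type it was 3.42, 3.28, 4.70 and 3.52, and the high value was the female library. The male double knockout library had the lowest value of its group and lay above all Raptor knockout libraries. The list median was 0.31 with sex as a covariate, where 1 member had an unadjusted p under 0.05, and 0.54 in male libraries alone, where 5 did. It was 1.05 without the smaller run.

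Of 22 antioxidant and metallothionein genes 13 were positive and 9 negative, with a median of 0.07. There were 3 higher at an unadjusted p under 0.05 (4.35% of all genes), Mt1, Mt2 and Nfe2l2. None was called, and in the fit with sex as a covariate none had an unadjusted p under 0.05. Mt1 and Mt2 encode metallothioneins, small metal-binding proteins induced by zinc and glucocorticoids. Mt1 stood at 212, 336, 124 and 155 CPM in the double knockout and at 57.9, 47.9 and 52.8 in the Raptor knockout (log2 fold change 1.97, SE 0.57, adjusted p = 0.285). Mt2 had a log2 fold change of 1.88 (SE 0.79, adjusted p = 0.513). In wild type Mt1 stood at 12.9, 16.8, 59.5 and 55.9 CPM.

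**Figure D3:**
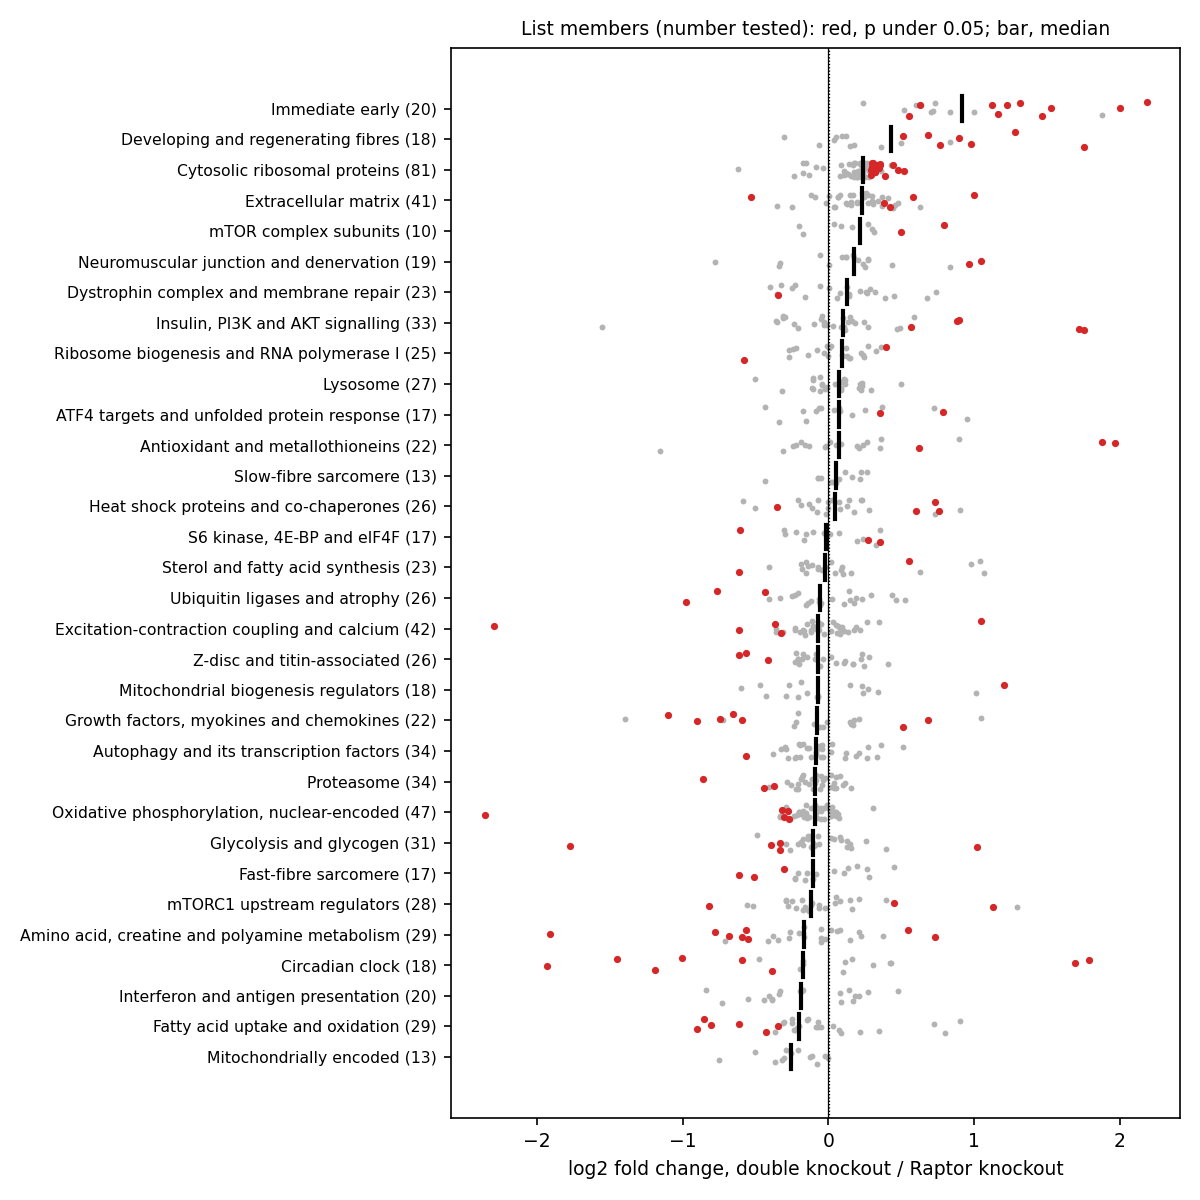
Log2 fold change of the double knockout over the Raptor knockout (x axis) for every tested member of each pathway list (y axis, number tested in brackets). Red points have an unadjusted p under 0.05, black bars are list medians, and the dotted line is the median of all genes. All 20 immediate early genes lie above 0 and all 13 mitochondrially encoded transcripts below it.

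Genes of developing and regenerating fibres lay mostly on the higher side. Of 18 tested members 16 had a positive difference, and the median was 0.43. There were 7 with an unadjusted p under 0.05, all higher (4.35% of all genes were higher at that level). None was called. Ankrd1, a titin-associated stress protein, stood at 1345, 1436, 1400 and 1203 CPM in the double knockout, 601, 874 and 571 in the Raptor knockout and 22.99 to 58.45 in wild type (log2 fold change between the knockouts 0.98, SE 0.24, adjusted p = 0.149). Myh8, the perinatal myosin heavy chain, stood at 55.3, 57.1, 66.5 and 98.5 CPM against 17.7, 44.9 and 22.9 (1.28, SE 0.34, adjusted p = 0.195). Igf2, the fetal growth factor encoded beside H19, stood at 229 to 268 CPM against 123 to 202 (0.68, SE 0.18, adjusted p = 0.188). Myh3, the embryonic myosin heavy chain, was near 0 (0.12, 95% interval -0.30 to 0.54). The list median was 0.14 with sex as a covariate, where 12 of 18 members were positive, and 0.22 in male libraries alone. With the covariate 7 members again had an unadjusted p under 0.05, all higher, as did 643 of all 10505 genes in either direction.

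Cytosolic ribosomal protein genes lay mostly on the higher side by small amounts. Of 81 tested, 73 were higher in the double knockout, with a median of 0.23, and 20 had an unadjusted p under 0.05, all higher (4.35% of all genes). None was called. The libraries of 47 of the 81 did not overlap, all higher (5.18% of all genes). Single log2 fold changes ran from -0.62 to 0.52, and the lowest was Rpl10 (SE 1.05). Rps23 stood at 1087, 968, 909 and 1068 CPM in the double knockout and at 715, 744 and 711 in the Raptor knockout (log2 fold change 0.48, SE 0.15, adjusted p = 0.257). Rpl23 stood at 1847, 1931, 1785 and 1752 CPM against 1471, 1483 and 1513 (0.30, SE 0.12, adjusted p = 0.428). Both were lower in wild type, at 376 to 577 and 606 to 801 CPM. Many ribosomal protein genes have near-identical pseudogenes, so reads may be split between copies. The median was 0.19 with sex as a covariate and 0.22 in male libraries alone, with 4 members at an unadjusted p under 0.05 in each, where 6.12% and 3.61% of all genes reached that level.

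The 41 tested extracellular matrix genes had a median of 0.23, with 35 positive. At an unadjusted p under 0.05, 4 were higher and 1 lower (4.35% and 5.14% of all genes). The median was -0.06 with sex as a covariate, with 25 of 41 negative. Eln, the elastin gene, stood at 49.6, 24.0, 33.4 and 25.6 CPM in the double knockout and at 12.3, 21.1 and 16.1 in the Raptor knockout (log2 fold change 1.0, SE 0.38, adjusted p = 0.404). The list's mean log2 CPM was 4.70 to 5.16 in the double knockout, lowest in the male library, and 4.65 to 4.84 in the Raptor knockout.

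Genes of mitochondrial metabolism lay mostly on the lower side. Of 47 nuclear-encoded genes of oxidative phosphorylation 36 were lower, with a median of -0.09, and 5 had an unadjusted p under 0.05, all lower (540 of all genes, 5.14%). Sdhd was the only one called. Sdhc, the other membrane anchor of succinate dehydrogenase, stood at 274, 310, 264 and 250 CPM against 348, 327 and 321, a log2 fold change of -0.28 (SE 0.12, adjusted p = 0.488). The 13 mitochondrially encoded transcripts were all lower, with a median of -0.26, and none had an unadjusted p under 0.05. The 2 most abundant, mt-Nd4 and mt-Cytb, had log2 fold changes of -0.29 (SE 0.15) and -0.26 (SE 0.14). With sex as a covariate the medians of these lists were 0.05 and -0.03, and in male libraries alone 7 of the 13 mitochondrially encoded transcripts were higher.

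Fatty acid genes had a median of -0.20 over 29 tested, and none was called. At an unadjusted p under 0.05, 6 were lower and none higher (5.14% and 4.35% of all genes). Acadm, the medium-chain acyl-CoA dehydrogenase, stood at 64.2, 74.1, 57.2 and 63.1 CPM in the double knockout and at 112, 124 and 116 in the Raptor knockout (log2 fold change -0.86, SE 0.21, adjusted p = 0.1503). Etfa and Etfdh, which pass electrons from that enzyme to the respiratory chain, had log2 fold changes of -0.61 (SE 0.19, adjusted p = 0.270) and -0.81 (SE 0.25, adjusted p = 0.254). Fabp3, the muscle fatty acid binding protein, stood at 111, 97.5, 109 and 87.2 CPM against 165, 184 and 217 (-0.90, SE 0.29, adjusted p = 0.309). The median was -0.15 with sex as a covariate and -0.19 in male libraries alone.

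Among 29 genes of amino acid, creatine and polyamine metabolism 6 were lower and 2 higher at an unadjusted p under 0.05 (5.14% and 4.35% of all genes). The list median was -0.17. With sex as a covariate it was -0.095, with 4 members lower and 0 higher at that level. Bdh1, the ketone body dehydrogenase, stood at 5.06, 2.69, 4.77 and 4.07 CPM in the double knockout and at 15.1, 17.1 and 14.7 in the Raptor knockout (log2 fold change -1.91, SE 0.48, adjusted p = 0.176). Oxct1, which acts beside it in ketone use, stood at 45.3 to 57.8 CPM against 59.3 to 92.0 (-0.59, SE 0.20, adjusted p = 0.309). Ampd1, muscle AMP deaminase, stood at 268, 265, 243 and 247 CPM against 391, 292 and 439 (-0.55, SE 0.14, adjusted p = 0.149). None of the list was called.

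Circadian clock genes differed in both directions, and none was called. At an unadjusted p under 0.05, 6 of 18 were lower and 2 higher (5.14% and 4.35% of all genes). The list had 8 positive and 10 negative members and a median of -0.18. The log2 fold change was -1.93 for Dbp, -1.45 for Ciart, -1.19 for Per3 and -1.004 for Nr1d1, and 1.79 for Per1 and 1.69 for Nfil3. Per3 stood at 13.6, 11.9, 10.1 and 15.7 CPM in the double knockout and at 28.5, 31.1 and 27.9 in the Raptor knockout (adjusted p = 0.195). In wild type Per3 ranged from 8.39 to 24.0 CPM. The time of day of collection was not given in the sources used here. In the fit with sex as a covariate 1 member had an unadjusted p under 0.05.

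Kcnj2, the inward rectifier potassium channel that sets the resting potential of the fibre, had the largest difference among 42 genes of excitation-contraction coupling. It stood at 6.32, 5.66, 10.1 and 9.30 CPM in the double knockout, 39.0, 40.3 and 37.0 in the Raptor knockout and 5.64 to 30.4 in wild type (log2 fold change -2.30, SE 0.42, adjusted p = 0.105). Over all libraries the sarcomere lists had medians of 0.05 over 13 slow-fibre genes and -0.11 over 17 fast-fibre genes. Myh4, the fast IIb myosin heavy chain, had a log2 fold change of 0.11 (95% interval -0.15 to 0.36). In male libraries alone all 13 slow-fibre genes were lower, with a median of -0.48 and 5 at an unadjusted p under 0.05, and the mean log2 CPM of that list was 6.96 in double knockout replicate 4 against 7.498 to 7.66 in replicates 1 to 3 and 7.40 to 7.45 in the Raptor knockout. Lists of autophagy (34 tested), lysosome (27) and proteasome (34) genes had medians of -0.08, 0.07 and -0.09 and no called gene, and the lysosome median was -0.06 with sex as a covariate.

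Markers of other cell types differed between the groups in some lists, and their part in the results was not tested. All 6 tested adipocyte markers overlapped between the groups. Their summed level was 628, 955, 490 and 310 CPM in the double knockout and 478, 441 and 641 in the Raptor knockout, and their median was 0.79, or -0.49 with sex as a covariate. The erythroid list was highest in Raptor knockout replicate 2, where Hbb-bs, an adult beta-globin gene, reached 3579 CPM. Replicates 1 and 3 held 800.2 and 1922 CPM, and the double knockout held 942 to 1146. Its median of -0.98 became -0.18 without that library. In the satellite cell list only 3 of 7 markers were tested, and Pax7 and Myf5, which define these cells, were not among them. Fibroblast, tenocyte, endothelial, smooth muscle and Schwann cell lists had medians from 0.05 to 0.31 and no called gene.

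Genes that differed from wild type in the pooled knockouts were then compared between the knockouts. Against wild type, the mean of the 7 knockout libraries, each with the same weight, differed for 3027 genes (28.8%), 1446 higher (13.8%) and 1581 lower (15.0%). Over the 1446 genes that rose, the double knockout was further from wild type than the Raptor knockout by a median of 0.10 on the log2 scale, and 65.9% had a positive difference, against 51.0% of all genes. Over the 1581 that fell the median was -0.10 and 35.0% had a positive difference. With sex as a covariate the medians over these 1446 and 1581 genes were 0.06 and -0.06. In male libraries alone they were 0.05 and -0.06. For the 89 genes pooled more than 4-fold higher the median was 0.26, and for the 62 more than 4-fold lower it was -0.47. None of the 3027 was called between the knockouts in edgeR's test, with 119 of those that rose higher and 43 lower at an unadjusted p under 0.05, and 36 and 174 of those that fell. The 95% interval lay within 2-fold for 78.8% of the genes that rose and 78.6% of those that fell.

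By library, the median difference from the Raptor knockout mean over the genes that rose was 0.12, 0.17, 0.05 and 0.05 in double knockout replicates 1 to 4 and 0.03, -0.05 and 0.03 in the Raptor knockout. Wild-type libraries lay between -0.80 and -0.68. Over the genes that fell the double knockout values were -0.10, -0.16, -0.07 and -0.06, and the Raptor knockout values were 0.02, -0.02 and 0.02. Each Raptor knockout library is part of the mean it is compared with, which narrows the spread of these values. From the wild-type mean, the genes that rose stood at 0.89, 0.92, 0.81 and 0.81 in double knockout replicates 1 to 4. In the Raptor knockout they stood at 0.78, 0.70 and 0.78. The double knockout libraries thus all lay slightly beyond the Raptor knockout libraries. The genes were chosen for their distance from wild type in these same libraries, so that distance is no measure to set this difference against.

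Among the single genes from the extremes given here, only Mss51 had an interval between the knockouts that left out 0. Mss51, a muscle mitochondrial protein, stood at 6.32, 5.12, 9.01 and 10.2 CPM in the double knockout, 26.7, 13.8 and 17.3 in the Raptor knockout and 78.3 to 226 in wild type (log2 fold change between the knockouts -1.33, 95% interval -2.18 to -0.48, adjusted p = 0.254). Amd1, which makes a precursor of polyamines, stood at 98.1 to 114 CPM against 133 to 213, with 420.1 to 2756 in wild type (-0.71, interval -1.84 to 0.42). Sox11, a transcription factor of developing tissue, was at 0.25 (interval -0.26 to 0.76), and Rab15, a vesicle transport GTPase, at 0.10 (interval -0.47 to 0.67).

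**Figure D4:**
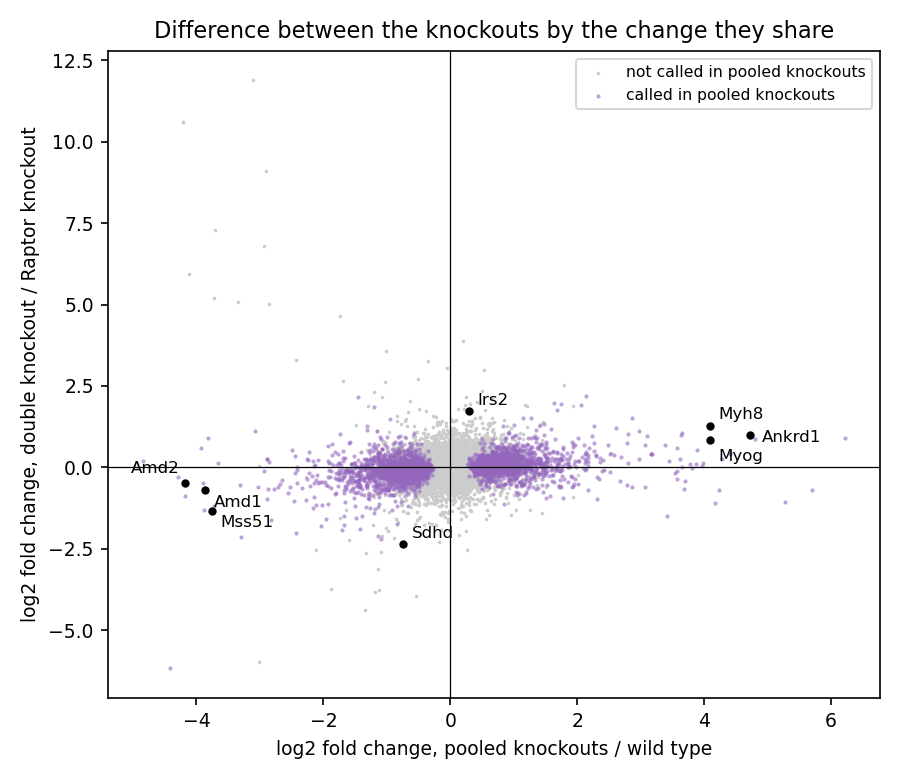
Log2 fold change of the double knockout over the Raptor knockout (y axis) against that of the 7 pooled knockout libraries over wild type (x axis), 1 point per tested gene, purple where the pooled change was called. The purple points on the right have a median of 0.10 and those on the left of -0.10.

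The difference between the knockouts was more frequent close to the Mtor gene on chromosome 4, a pattern found after the values were seen. Of 131 tested genes within 10 Mb of the Mtor start, Mtor itself left out, 33 (25.2%) had an unadjusted p under 0.05, 9 higher and 24 lower, against 9.49% of all genes. On the rest of chromosome 4 the share was 49 of 500 (9.80%). Within 10 Mb of the Rptor start on chromosome 11, floxed in both genotypes, it was 13 of 128 (10.2%). Of 203 stretches of 10 Mb with at least 20 tested genes across the genome, the one that holds Mtor ranked 1, with 32.8% of 58 genes, Mtor included. The next 2 stood at 28.6% of 21 genes each, and 1 of these was also on chromosome 4. By distance from Mtor, the bin from -10 to 0 Mb stood at 11 of 50 genes, and the bins from -70 to -60 Mb (5 of 20 genes), -60 to -50 Mb (3 of 13) and -120 to -110 Mb (4 of 18) had like shares from fewer genes.

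Rcc2 and Arhgef10l, described above, lie 7.75 and 7.93 Mb before the Mtor start, and Per3 lies 2.56 Mb after it. Others in the window were Park7, the antioxidant protein DJ-1, 2.45 Mb after the start, at 88.8 to 109 CPM in the double knockout and 128.0 to 181 in the Raptor knockout (log2 fold change -0.67, SE 0.17, adjusted p = 0.149). Errfi1, a feedback inhibitor of the EGF receptor, 2.41 Mb after it, stood at 13.4 to 24.5 CPM against 5.69 to 10.5 (1.14, SE 0.28, adjusted p = 0.149). Eno1, the widely expressed enolase, which has a near-identical retrogene copy, 1.79 Mb after it, stood at 3.71 to 7.59 CPM against 18.2 to 26.3 (-1.77, SE 0.44, adjusted p = 0.174). Angptl7, a secreted angiopoietin-like protein encoded inside the Mtor gene on the other strand, 0.05 Mb after its start, stood at 3.16 to 7.81 CPM against 9.74 to 17.1 (-1.44, SE 0.35, adjusted p = 0.149).

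The double knockout mice carry a floxed Mtor allele at this place and the Raptor knockout mice do not, and whether the flanking DNA differs in strain was not tested. Against wild type, 24.4% of the genes in the window were called in the double knockout and 17.6% in the Raptor knockout, close to the 26.7% and 18.2% of all genes. The share at an unadjusted p under 0.05 in the window was 9.92% with sex as a covariate (6.12% of all genes) and 10.7% in male libraries alone (3.61% of all genes). Over the other alternatives it ran from 16.9% to 33.3%. The lowest was in limma on TPM with no filter, where 1610 of all 22063 genes reached that level. The highest was with the knockouts alone in the fit, where 1299 of all 10161 did.

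**Figure D5:**
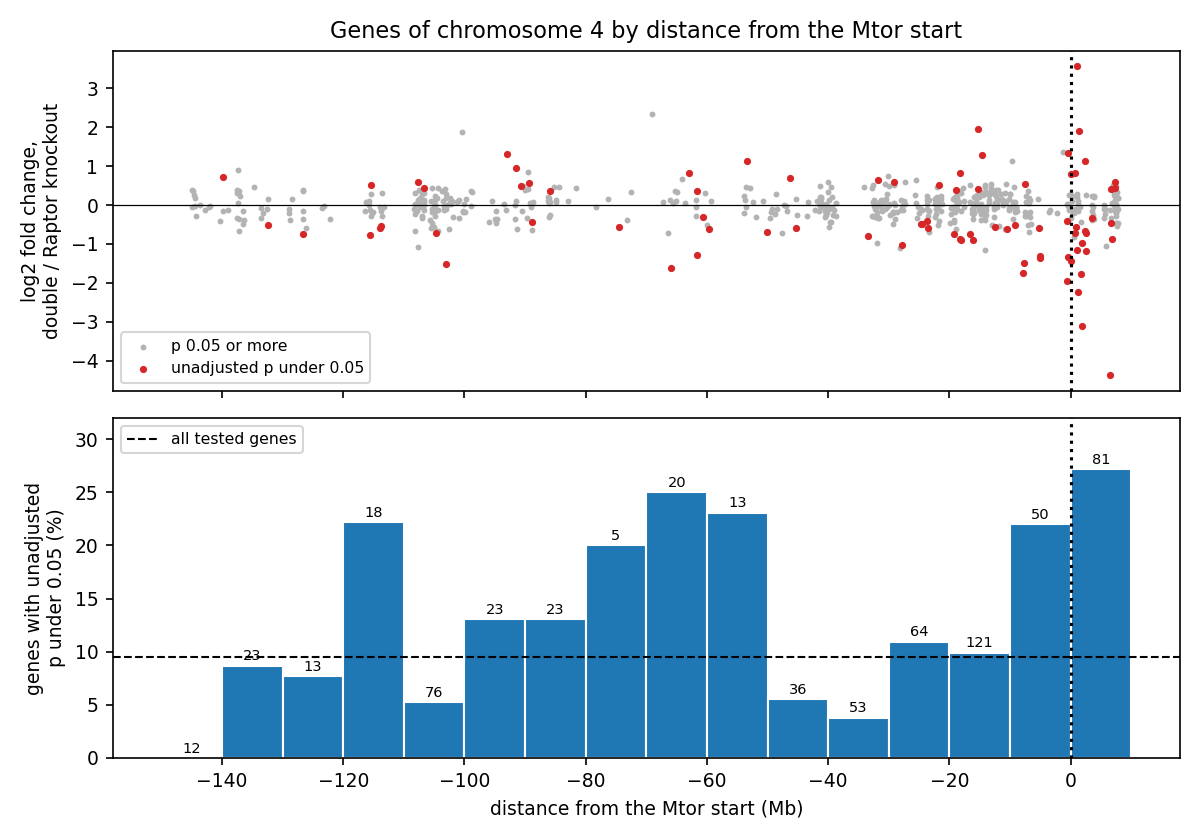
Top: log2 fold change of the double knockout over the Raptor knockout (y axis) for tested genes of chromosome 4 by distance from the Mtor start in Mb (x axis), red where the unadjusted p is under 0.05. Bottom: percentage of such genes in each 10 Mb bin, with the number of genes above each bar and the share of all tested genes (9.49%) dashed; the bins next to Mtor hold 11 of 50 genes and 22 of 81 (27.2%).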

How the data were processed

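Gene expression was measured in gastrocnemius of 11 mouse libraries (4 wild type, 3 Raptor knockout, 4 double knockout). Per the submitters' processing notes, fastp 0.20.0, STAR 2.7.0 and RSEM 1.3.3 were used with GRCm38 (mm10); the annotation was not given in the sources used here. The deposited values are expected counts per gene, and 2.25% of them were not whole. They were rounded, which moved a library total by at most 30.2. The deposited TPM served as an alternative only. The tables held 55487 genes, and 6 columns that matched no sample were not used. Symbols and positions are from GENCODE M21 (55227 genes matched), and promoters are from RefSeq (GRCm38.p6).

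Genes were filtered with filterByExpr (minimum count 10), which kept 10505 genes and 99.5% of counts, scaled by TMM and fitted with edgeR 4.0.16 (R 4.3.3, robust quasi-likelihood) over the 3 genotypes, with 8 residual degrees of freedom. SEs are the fold change divided by the root of F. The script was tested on simulated data. Alternatives were DESeq2 1.42.0, limma 3.58.1 on log2(TPM + 1) or log2(TPM + 0.1), DESeq2 size factors, library totals, no filter, the 2 knockouts alone, run or sex as a covariate, no smaller run, male libraries alone and each library left out. Sex was read from Xist and Y-linked genes.

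The members and the gene lists were chosen with earlier results of these data known, and no list was tested as a set. Named genes were the targeted and sex-linked genes, all called genes, the 4 called members of a list with the smallest adjusted p or else its 2 most abundant members, the 6 largest pooled rises and falls, and the 10 genes with the smallest adjusted p called with sex as a covariate (none); other names were chosen after their values were seen. Intervals on counts cover counting error only.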

Additional observations from a re-analysis of the deposited data

Results flagged for a closer look

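Of 184 named genes, 11 had 1 double knockout library whose distance to the nearest of the other 3 as a share of the group's range exceeded Dixon's critical value for 4 samples, and chance alone marks about 1 group in 20. The Raptor knockout, with 3 libraries, was not examined this way.

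Replicate 4 stood apart for the Y-linked genes, at 91.8 CPM for Ddx3y, 20.6 for Eif2s3y, 6.10 for Kdm5d and 13.7 for Uty, against 0 to 0.316 in the other 3 libraries for all of these. It also had the lowest level of the chaperone gene Hspa5, at 184 CPM against 245 to 254.

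Replicate 2 was lowest for the proteasome genes Psmd1, at 187 CPM against 245 to 257, and Psmd11, at 185 CPM against 272 to 290. It was highest for Psap, the precursor of lysosomal saposins, at 451 CPM against 327 to 348, and for Mbp, the myelin basic protein gene, at 93.2 CPM against 32.3 to 41.7. Replicate 3 was lowest for the ribosomal protein gene Rpl31, at 331 CPM against 424 to 431. Replicate 1 was highest for Nfe2l2, which encodes the antioxidant regulator NRF2, at 60.05 CPM against 44.2 to 45.1.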

How the results depend on the processing

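The count of called genes (1 higher, 2 lower) depended on the setting. It was 1 and 1 with library totals, 44 and 61 with no filter, 65 and 92 with the knockouts alone in the fit, 51 and 48 with DESeq2, and 2 and 0 with run as a covariate or without the smaller run. With sex as a covariate it was 0 and 0 (643 genes at an unadjusted p under 0.05 in edgeR), as with male libraries alone (404). In limma on TPM it was 1 and 0 with pseudocount 1, 2 and 0 with pseudocount 0.1, and 3 and 6 with no filter. Leaving out 1 library gave 0 to 27 higher and 0 to 70 lower genes: 27 and 70 without wild-type replicate 4, 16 and 12 without wild-type replicate 3, 9 and 18 without Raptor knockout replicate 2, and 0 and 0 without Raptor knockout replicate 1 or 3 (675 and 641 genes at an unadjusted p under 0.05). The cause was not tested. The median over pooled risers, 0.10 in the main fit, ran from 0.05 to 0.15. It was 0.0604 with sex as a covariate and 0.0480 in male libraries alone. That over pooled fallers was -0.0554 with sex as a covariate and -0.0400, -0.0457 and -0.0397 in the limma settings above, and leaving out 1 library gave -0.12 to -0.08. Of 4223 pairs of a named gene and a setting, 3875 kept direction and side of the threshold, 147 newly passed, 36 lost it and 165 had the opposite sign without a call. The difference changed sign in no called gene. No paired analysis was possible because the labels give no replicate numbers. Genes of few counts, such as Gm43778, are limited by depth.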
